A study of Caenorhabditis elegans with 6 samples.

Results

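The genes described here are 129 protein-coding CSR-1 targets with many 22G-RNAs in wild-type adults, out of 19781 genes with 22G-RNA entries. Among all of those genes they ranked between 41 and 659 by wild-type level, so they are the highest of their class only. They were selected from the target classes in the deposited tables: each is a CSR-1 target, is not an HRDE-1 or ALG-3/4 target, and had a mean of at least 100 RPM (reads per 1000000 genome-mapped reads) in the 2 untreated wild-type libraries. The same classes hold 3658 genes at any level, of which 135 reached 100 RPM. The rule also leaves out, by name, genes for histones and ribosomal proteins, the *glh*, *pgl*, *mog*, *mut* and *wago* families and a few small RNA factors. At 100 RPM or more these were 6 genes (*ego-1*, *glh-1*, *glh-4*, *pgl-1*, *wago-4* and *csr-1*), and 3462 genes chosen by the same rule lay below 100 RPM. The wild-type level was therefore the criterion of choice and is given below as a description.

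Small RNAs of whole *C. elegans* adults, collected as pools of synchronized animals, were sequenced in 6 libraries. The 2 untreated wild-type libraries came from animals with an RFP tag on the P granule protein PGL-1. The 2 untreated *eggd-1* libraries came from animals labelled as null for *eggd-1*, and the labels do not say whether these also carry the tagged PGL-1. In addition, 1 library of N2 wild-type and 1 library of *eggd-1* null animals were made from RNA oxidized with sodium periodate. EGGD-1 is a LOTUS domain protein that promotes the perinuclear location of germ granules, and the libraries addressed whether its loss changes the small RNAs that depend on these granules.

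22G-RNAs are antisense small RNAs made by RNA-dependent RNA polymerases on target transcripts. Those bound by the Argonaute CSR-1 are complementary to transcripts expressed in the germ line, which CSR-1 is known to protect from piRNA-guided silencing and, for some targets, to cleave. WAGO-4, an Argonaute of Z granules, shares many targets with CSR-1, whereas WAGO-1 and HRDE-1 act mainly in silencing.

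The untreated libraries held between 21883625 and 31245662 genome-mapped reads, of which 8259548 to 12246742 were counted as 22G-RNAs. In the oxidized libraries, 289909 (wild-type) and 205254 (*eggd-1*) reads were 22G-RNAs. The *eggd-1* gene itself (C38D4.4, annotated as *mip-1*) had 22G-RNA levels of 78.1 and 81.1 RPM in wild-type, against 0.366 and 0.469 RPM in the libraries labelled *eggd-1*. Replicates differed by more than counting noise: over the members, the chi-square statistic per degree of freedom was 7.25 between the wild-type libraries and 10.3 between the *eggd-1* libraries. The labels number the replicates and the study calls them biological, and p-values measure only the spread between these samples. The tables hold small RNAs alone, so the label of whole animals was not checked against marker mRNAs.

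The members formed a germline set with a shared class profile. In the class column, 127 of 129 were also WAGO-4 targets, while 7 were WAGO-1 targets, 7 were ERGO-1 targets, 8 depended on MUT-16 and 4 on PRG-1. Of the 3462 CSR-1 targets below 100 RPM, 405 were WAGO-1 targets. For the other classes no such share is given here, so the profile is not shown to be particular to the members. By expression class, 96 were gender-neutral, 22 oogenic and 1, *znfx-1*, spermatogenic. Only 2 lay on the X chromosome (1.55%), against 45 of the 3462 targets below the cutoff, while chromosome III held the most (32, or 24.8%, against 23.3% of the targets below the cutoff).

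Members were long in exon sequence, counted as all bases covered by exons of any annotated transcript. The exons of a member covered between 842 and 13382 bases with a median of 3234, against a median of 1665 for the CSR-1 targets below 100 RPM. A level in RPM is a sum over the gene, and per kilobase of exon the members held a median of 45.4 RPM, against 12.1 RPM for the targets below the cutoff. Because the members were chosen by that sum, both differences follow at least in part from the choice. Among the members, 5 pairs lay within 1000 bases of each other, in each case on the same strand: *lin-5* and *ostb-1*, *snrp-200* and *pisy-1*, C28A5.1 and C28A5.2, R05D3.2 and *met-2*, and *tebp-2* and *cec-6*.

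The highest level belonged to E01G4.5, an ERGO-1 target on chromosome II (13472401 to 13473995, WBcel235), with 1071.7 and 971.0 RPM in wild-type, or a mean of 748 RPM per kilobase of exon. It was followed by *cls-2*, which encodes a microtubule-binding protein of the CLASP family, with 604 and 572 RPM, and *xnp-1*, an ATRX-family chromatin remodeller, with 447 RPM in both. The next were *snrp-200*, a helicase of the U5 snRNP, at 422 and 412 RPM and *tebp-2*, a telomere-binding protein, at 373 and 356 RPM. The order of these 5 genes was the same in both wild-type libraries.

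Per kilobase of exon the order was different. After E01G4.5, F09G2.2 held 242 RPM and T07A9.14 held 195 RPM per kilobase, ahead of *cls-2* with 176. The thinnest coverage lay on long genes: F55F10.1 held 8.98 RPM per kilobase, *trr-1*, a TRRAP-like component of histone acetyltransferase complexes, held 9.40, and *eel-1*, a HECT-domain ubiquitin ligase, held 12.3. Replicate agreement was close throughout, with a median ratio of 1.04 and a largest ratio of 1.20 between the 2 wild-type libraries.

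At the cutoff the choice was narrow. Just inside it lay *mdt-26*, a Mediator subunit (98.9 and 101 RPM), *prmt-5*, an arginine methyltransferase (99.6 and 101 RPM), and *egg-5*, a pseudophosphatase of egg activation (101 RPM in both). Just outside lay *cbd-1*, an eggshell protein (99.2 and 100 RPM), *set-25*, a histone H3 lysine 9 methyltransferase (98.6 and 100 RPM), and Y14H12B.2 (98.4 and 99.5 RPM).

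In *eggd-1* most members gained 22G-RNAs and a smaller set lost them. Together the members held 22181.6 and 21493.1 RPM in wild-type. In *eggd-1* they held 30292.7 and 31273.2 RPM, and both *eggd-1* libraries lay above both wild-type libraries. The sum was 1.41 ± 0.0447 times that in wild-type (SD, 2 libraries per genotype). They made up 5.47% and 5.48% of all 22G-RNAs in wild-type, against 8.03% and 8.13% in *eggd-1*. Of the 22G-RNAs of all CSR-1 targets they made up 16.9% and 16.6% in wild-type, compared with 21.3% and 21.1% in *eggd-1*. In whole animals, fewer cells of a type and less RNA per cell cannot be told apart.

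Every member passed the filter on low counts. By edgeR's quasi-likelihood test at a Benjamini-Hochberg adjusted p below 0.05, 85 of 129 members were higher in *eggd-1* and 22 were lower, where over all 11741 genes tested 21.7% were higher and 40.8% lower. The median log2 fold change was 0.36 over the members and -0.18 over all genes tested, a difference of 0.54. With TMM factors the median of all genes moved from -0.18 to -0.03 and the calls over all genes from 4789 lower and 2549 higher to 3719 lower and 3446 higher. The members moved with it, to a median of 0.50 with 97 higher and 15 lower.

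Fewer members changed by larger factors. At least 1.5-fold, 40 members rose and 10 fell (background 13.6% higher and 25.8% lower). At least 2-fold, 17 rose and 7 fell (background 9.30% higher and 16.1% lower). At least 4-fold, *set-16* and *nurf-1* rose and *hgap-1* and *ego-2* fell (background 2.04% higher and 4.81% lower).

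**Figure D1:**
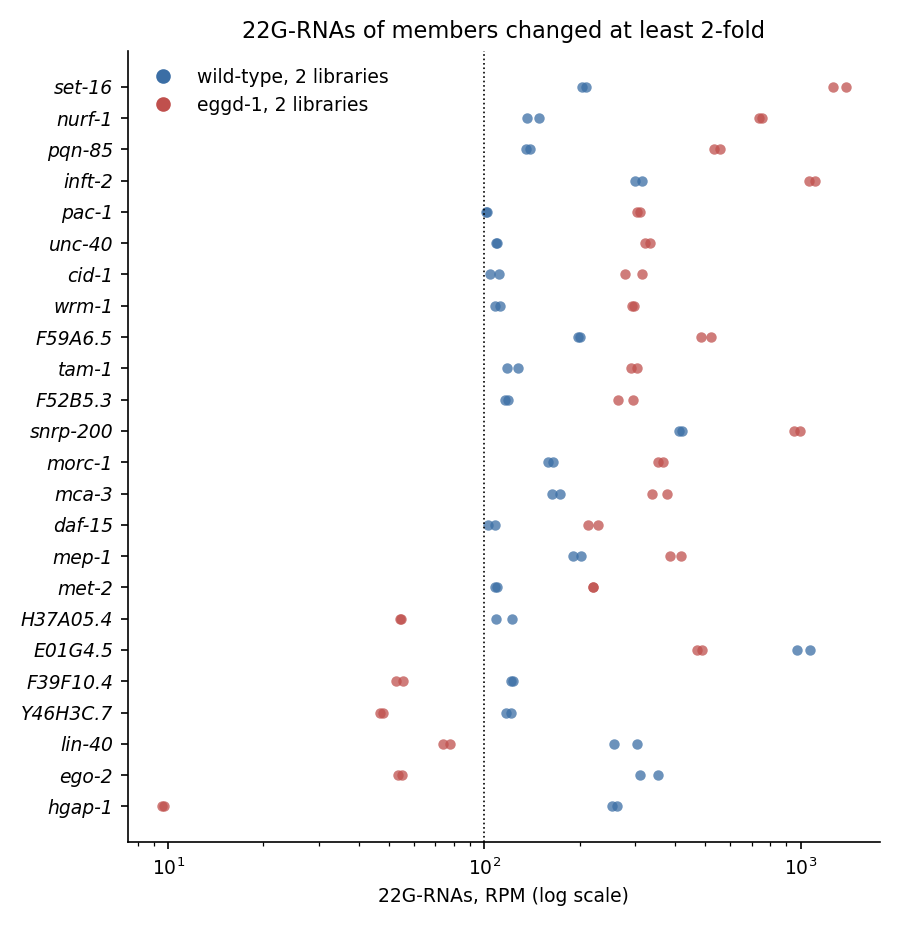
22G-RNA level in RPM (log axis) of the 24 members changed at least 2-fold, 17 higher and 7 lower, one point per untreated library, wild-type in blue and *eggd-1* in red, ordered by log2 fold change. The dotted line marks 100 RPM. The genes were chosen by their change in these same libraries, so the lack of overlap between the genotypes is no further support. *hgap-1* falls to 9.69 and 9.55 RPM.

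Below the cutoff, CSR-1 targets with lower wild-type levels had lower medians. CSR-1 targets with 50 to 100 RPM in wild-type had a median log2 fold change of 0.06 (163 of 419 higher, 119 lower), those with 10 to 50 RPM -0.14 (406 of 2362 higher, 1040 lower), and those below 10 RPM -0.20 (63 of 675 tested higher, 249 lower). With TMM factors these medians were 0.21, 0.00 and -0.05, with the groups in the same order. DESeq2 turned the median of the middle group to 0.04 and miRNA scaling that of the highest group to -0.02. Among the members this order did not continue, since the 28 members of at least 200 RPM had a median of 0.27 (20 higher, or 13 with miRNA scaling, and 6 lower), against 0.36 for the 101 below 200 RPM (65 higher, and 16 lower, or 8 with DESeq2). The wild-type libraries entered both the choice of members and the contrast. When genes were chosen by the *eggd-1* mean instead, 200 genes qualified, of which 113 were members. Of the 200, 169 rose and 8 fell. That choice favours genes that are higher in *eggd-1*, so its counts are no check on the direction. Chosen by the mean of all 4 libraries, 159 genes qualified, of which 120 were members. Of the 159, 123 rose and 14 fell. Those that are no members lay below 100 RPM in wild-type and above it in *eggd-1* by the choice itself. Their direction is therefore no check either.

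**Figure D2:**
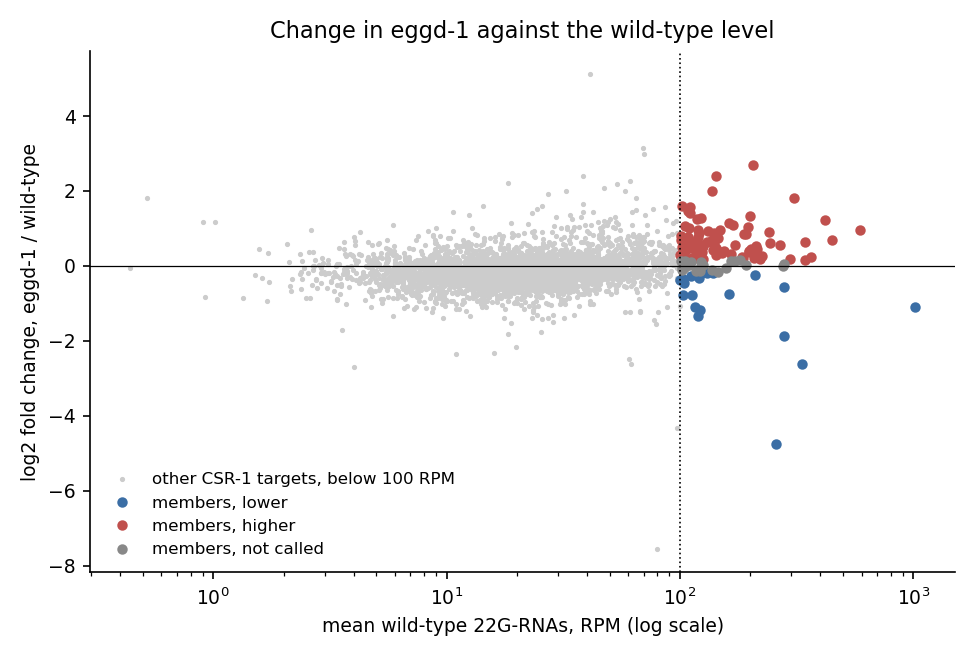
Log2 fold change of 22G-RNAs in *eggd-1* against the mean wild-type level in RPM (log axis), with the 129 members in colour by call and the CSR-1 targets below 100 RPM in grey. The dotted line is the cutoff of 100 RPM. The members scatter around a median of 0.36, from -4.75 to 2.68.

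The 3 largest gains were at *set-16*, *nurf-1* and *pqn-85*, which act on chromatin or chromosomes. For *set-16*, an MLL-like histone H3 lysine 4 methyltransferase on chromosome III (13643916 to 13656637), levels were 210 and 203 RPM in wild-type but 1386.9 and 1261.4 RPM in *eggd-1*. Both *eggd-1* libraries lay far above both wild-type libraries, a log2 fold change of 2.68 (SE 0.0771, adjusted p = 1.89e-23). Summed over the gene, it was the member with the most 22G-RNAs in *eggd-1*.

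*nurf-1*, the large subunit of the NURF chromatin remodelling complex on chromosome II, had 149 and 136 RPM in wild-type, against 739 and 757 RPM in *eggd-1* (log2 fold change 2.39, SE 0.0751, adjusted p = 1.77e-22). *pqn-85*, annotated as *scc-2*, encodes the loader of cohesin onto chromosomes. Its levels were 139 and 135 RPM in wild-type, against 557 and 534 RPM in *eggd-1* (log2 fold change 1.99, adjusted p = 5.77e-21). For both genes the *eggd-1* libraries were close to each other and well apart from wild-type.

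*inft-2*, a formin-family gene on chromosome V, rose from 314 and 299 RPM to 1058.9 and 1112.4 RPM (log2 fold change 1.82, adjusted p = 7.64e-20). An exon of *inft-2* overlaps a gene on the other strand, and 22G-RNAs were counted antisense only. The next increases were *pac-1* with a log2 fold change of 1.59, *unc-40*, the netrin receptor, with 1.58, *cid-1*, a terminal uridylyltransferase, with 1.46, and *wrm-1*, a beta-catenin, with 1.42. For these 4 genes the wild-type libraries lay between 101 and 112 RPM and the *eggd-1* libraries between 279 and 335 RPM.

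The largest losses were at 3 genes with no ERGO-1 label. *hgap-1*, an oogenic-class gene on chromosome I, had 263 and 254 RPM in wild-type, against 9.69 and 9.55 RPM in *eggd-1*, 26.8-fold less (log2 fold change -4.75, SE 0.0894, adjusted p = 6.59e-28). *ego-2*, named as an enhancer of the Notch receptor gene *glp-1*, had 354 and 310 RPM in wild-type, against 53.3 and 54.9 RPM in *eggd-1* (log2 fold change -2.62, adjusted p = 7.46e-23). *lin-40*, an MTA-family component of NuRD, had 303 and 256 RPM in wild-type, against 74.2 and 78.1 RPM in *eggd-1* (log2 fold change -1.88, adjusted p = 3.47e-19). In each, the *eggd-1* values nearly coincided and lay under the lower wild-type value.

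These genes left the upper part of the distribution. *hgap-1*, *ego-2* and *lin-40* were among the 16 members that were below 100 RPM in *eggd-1*. The replicates of *ego-2* and *lin-40* were among the 5 furthest apart in wild-type, yet the gap between genotypes was wider still. *fan-1*, a nuclease of DNA crosslink repair, fell less, from 117 and 108 RPM to 65.9 and 65.6 RPM (log2 fold change -0.77).

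ERGO-1 targets accounted for most of the other large decreases. ERGO-1 is an Argonaute that binds 26G-RNAs in oocytes and embryos, and its targets carry secondary 22G-RNAs. Of the 7 members in this class 6 fell and none rose, with a median log2 fold change of -1.09. With TMM factors or DESeq2, 6 fell and ZK402.5 was higher. Of all 66 ERGO-1 targets in the tables, 37 fell and 14 rose (median -0.33).

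E01G4.5 dropped from 1071.7 and 971.0 RPM to 488 and 471 RPM (log2 fold change -1.09, adjusted p = 3.93e-14). Y46H3C.7 had 121 and 117 RPM in wild-type, against 47.8 and 46.9 RPM in *eggd-1* (log2 fold change -1.33), and F39F10.4, one of the 2 members on the X chromosome, had 121 and 123 RPM against 55.3 and 52.7 RPM (-1.18). H37A05.4 (-1.09), Y116F11A.1 (-0.77) and CD4.8 (-0.57) fell as well, while ZK402.5 had 192 RPM in both wild-type libraries and 205 and 186 RPM in *eggd-1*, where the genotypes overlap. An exon of Y46H3C.7 overlaps another gene on the same strand, so its reads were divided between them. Without the ERGO-1 class, 85 of 122 members rose and 16 fell (9 lower with TMM factors and 7 with DESeq2).

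26G-RNAs, the primary small RNAs of the ERGO-1 pathway, were near zero for nearly all members: 124 of 129 had under 1 RPM in both genotypes. The exceptions were 5 ERGO-1 targets. Y116F11A.1 had 17.4 RPM of 26G-RNAs in both wild-type libraries, against 7.11 and 8.40 RPM in *eggd-1*, and E01G4.5 had 12.8 and 12.5 RPM against 7.20 and 6.69 RPM. F39F10.4 followed with 2.80 and 2.24 RPM against 1.10 and 1.66 RPM. ZK402.5 had 1.26 and 1.34 RPM against 1.19 and 1.15 RPM, and CD4.8 had 1.14 and 0.989 RPM against 0.891 and 0.885 RPM. The genotypes did not overlap for any of the 5 genes, though the gap was narrow for ZK402.5 and CD4.8. In the oxidized libraries, E01G4.5 had 120 RPM of 26G-RNAs in wild-type, against 51.7 RPM in *eggd-1*, and Y116F11A.1 had 195 and 68.8 RPM.

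The 7 members that are also WAGO-1 targets all rose: *pqn-85*, *pac-1*, *unc-40*, *tam-1*, *pld-1*, *daf-2* and *pqn-41*, with a median log2 fold change of 1.27 and a range of 0.34 to 1.99. All 7 were also called higher under TMM, DESeq2 and miRNA scaling. The WAGO-1 class as a whole did not move this way: of 1414 tested WAGO-1 targets 242 rose and 789 fell (median -0.31), and of the 405 that are CSR-1 targets below 100 RPM 67 rose and 216 fell (median -0.23). *tam-1*, named as a modifier of gene expression from tandem arrays, had 128 and 118 RPM in wild-type, against 304 and 291 RPM in *eggd-1*, and *daf-2*, the insulin receptor, had 107 and 102 RPM against 142 and 140 RPM. Members in none of the WAGO-1, PRG-1, MUT-16 and ERGO-1 classes rose in 77 of 114 cases and fell in 16 (9 with TMM factors, 7 with DESeq2), with a median of 0.36.

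The members were also grouped by known role. These groups were drawn up after the values were seen, so their counts describe the members and are no evidence about a function. The 57 members given no role held 16 of the 22 decreases (10 of the 13 called with DESeq2) and 6 of the 7 that were at least 2-fold, and 30 of them rose (median 0.27). Of 11 members that act in small RNA pathways, 10 rose and *ppw-2* (an Argonaute also known as WAGO-3) fell, with a median log2 fold change of 0.46. *cid-1* changed most, and *hrde-4*, required for heritable RNAi, rose to 420 and 480 RPM from a wild-type mean of 241 ± 8.73 RPM (SD, 2 libraries; log2 fold change 0.90). *rrf-1*, an RNA-dependent RNA polymerase, rose from 121 and 116 to 202 and 204 RPM (0.77), and *rde-12*, a helicase of the RNAi pathway, from 105 and 97.7 to 166 and 160 RPM (0.69). In these genes the genotypes did not overlap. Z granule helicase *znfx-1* (0.46), *rsd-2* (0.27), the Tudor protein *simr-1* (0.22) and the nuclear RNAi factor *nrde-2* (0.18) rose less. With miRNA reads as library size, 6 of the 11 were higher, and *ppw-2* was not called with TMM factors.

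Of 22 members grouped as chromatin and chromosome genes, 18 rose and 2 fell, *lin-40* and *ada-2*, with a median log2 fold change of 0.46. With miRNA reads as library size 12 were higher. At least 2-fold, 7 rose. Beside *set-16*, *nurf-1*, *pqn-85* and *tam-1*, these were *morc-1*, a GHKL ATPase of heterochromatin, *mep-1*, a zinc-finger protein that works with the Mi-2 homologue LET-418, and *met-2*, an H3 lysine 9 methyltransferase. *morc-1* had 165 and 159 RPM in wild-type, against 354 and 367 RPM in *eggd-1*, and *met-2* had 110 and 108 RPM against 220 RPM in both. *set-2*, the methyltransferase of the COMPASS complex, rose by 0.84 and *top-2*, topoisomerase II, by 0.62. *set-9* (0.27) and *set-26* (0.28) are close paralogues whose counts include reads shared between them, so their separate values are uncertain.

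Of 21 members grouped as genes of the spindle, kinetochore and cell cortex, 17 rose and none fell, none of them by 2-fold, with a median of 0.42. *cls-2* had 604 and 572 RPM in wild-type, against 1153.9 and 1116.4 RPM in *eggd-1* (log2 fold change 0.95, adjusted p = 6.26e-13). *hcp-3*, the centromeric histone H3 variant CENP-A, had 149 and 148 RPM against 264 and 317 RPM (0.97), and *unc-116*, the kinesin-1 heavy chain, 93.5 and 110 RPM against 164 and 188 RPM (0.80). The acentrosomal spindle kinesins *klp-15* (0.40), *klp-16* (0.52) and *klp-18* (0.55) also rose. *klp-15* and *klp-16* are close paralogues whose *eggd-1* counts are partly fractional, so their separate values are uncertain. *par-2*, a cortical polarity protein, rose by 0.42. *maph-1.2* and *maph-1.3* share reads, as their fractional counts show, and had log2 fold changes of 0.15 and 0.17, of which the latter was called.

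Other roles showed mixed calls. *snrp-200* rose from 422 and 412 RPM to 994 and 954 RPM (1.22), while its neighbour *pisy-1*, 121 bases away on the same strand, rose by 0.36. *mcm-2*, a subunit of the replicative helicase, rose by 0.92, and the meiotic HORMA protein gene *htp-1* by 0.57. The splicing helicase *ddx-15* had a log2 fold change of -0.17 that was called, and 0.01 by DESeq2. The nucleoporin genes *npp-10* (-0.14) and *mel-28* (-0.10) were not called, and in the eggshell list *egg-6*, which encodes a leucine-rich repeat protein, had 0.19, which was called, against 0.12 for *egg-5*, which was not. Both nucleoporin values changed sign with TMM factors.

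**Figure D3:**
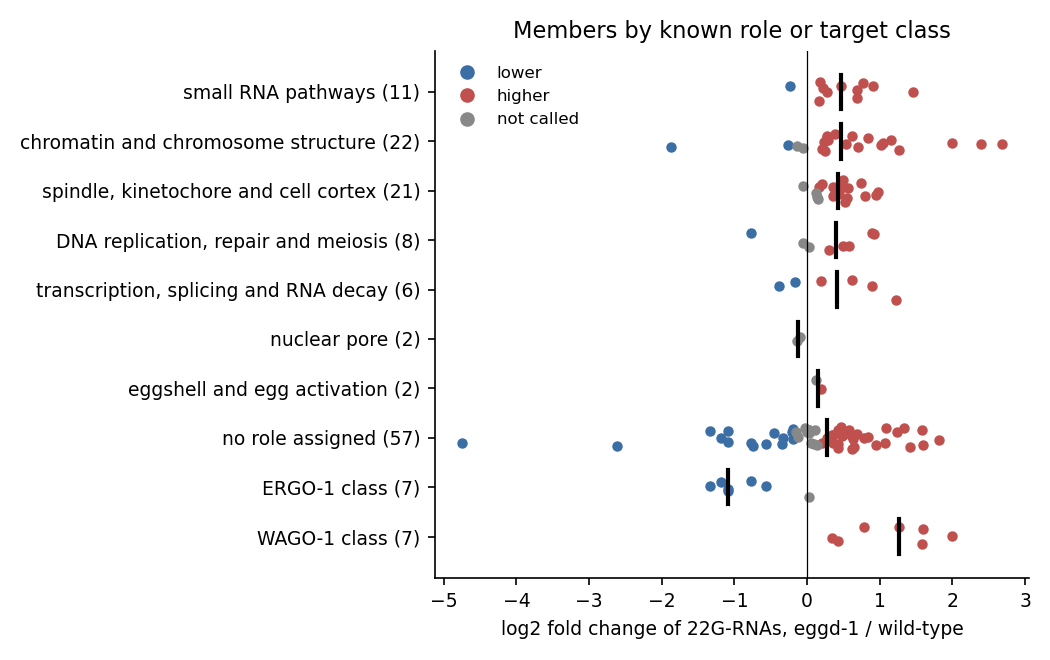
Log2 fold change of 22G-RNAs in *eggd-1* for members grouped by known role, for the 57 members given no role, and for the ERGO-1 and WAGO-1 classes, which also occur in the role groups. Each point is a member, coloured by call, and the black bar is the group median, which is 0.46 for small RNA and for chromatin genes, 0.42 for spindle genes, 0.27 for members without a role, -1.09 for ERGO-1 and 1.27 for WAGO-1 targets.

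In lists that cover each function across all genes, rather than members alone, the same functions showed smaller shifts. Of 56 genes for the spindle, centrosome and kinetochore 25 rose and 9 fell (median 0.13), and 13 were members, of which 10 rose and none fell. Of 94 tested chromatin genes 26 rose and 32 fell (median -0.03), and 10 were members, of which 9 rose and none fell (5 higher with miRNA reads as library size). Of 15 germ granule genes 4 rose and 6 fell (median -0.01), and the 4 members, *znfx-1*, *simr-1*, *rrf-1* and *rde-12*, were the 4 that rose. The P granule genes *glh-1*, *glh-4* and *pgl-1* also reached 100 RPM but were left out by name, so these members are not all germ granule genes of that level.

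Smaller lists held 1 or 2 members each. Both members of the actin, tubulin and cortex list, *let-502* (0.44) and *cyk-1* (0.49), rose, where 11 of 42 tested genes rose and 11 fell. In DNA replication 7 of 33 rose and 9 fell, in the cell cycle list 17 of 39 rose and 11 fell, in the meiosis list 10 of 36 rose and 14 fell, and in the proteasome and ubiquitin list 15 of 92 rose and 48 fell, each with 1 member that rose (*mcm-2*, *par-2*, *htp-1* and *rpn-2*). The nuclear pore list had 15 of 47 higher and 11 lower, the eggshell list 3 of 14 higher and 6 lower, splicing 9 of 66 higher and 25 lower, and vesicle traffic, with *vps-15* (-0.12), 15 of 126 higher and 54 lower.

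Several lists had no member. Among these were translation factors (3 of 42 higher, 19 lower), tRNA synthetases (4 of 22 higher, 3 lower), chaperones (6 of 69 higher, 43 lower), mitochondria (11 of 125 higher, 59 lower) and oocyte and embryo RNA regulators (11 of 46 higher, 14 lower). In the list of sperm genes, 25 of 33 tested were higher and 3 lower, with a median of 1.50. A gene can pass the filter on low counts through either genotype alone, so these 33 may include genes that passed only where they are high. Without a filter 27 were higher and 3 lower, with a median of 1.04. When the filter asked for 50 counts on average, 4 were higher and 3 lower, with a median of 0.02. All 82 sperm genes together held 109 and 108 RPM in wild-type, against 124 and 122 RPM in *eggd-1*. In wild-type 2 of them were at 0 in both libraries, in *eggd-1* none. None of the members is on that list, and the part of sperm-related cells in the members' changes was not tested.

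The oxidized libraries gave a readout that the selection did not use. Periodate reacts with RNA whose 3′ end is unmodified and keeps it from being cloned, so that small RNAs with a 2′-O-methyl group, such as piRNAs, are retained. The members' 22G-RNAs fell to a summed 242 RPM in oxidized wild-type, 1.11% of their untreated level, and to 697 RPM in oxidized *eggd-1*, 2.26%. RPM in the oxidized libraries is relative to a different mixture of reads. These percentages therefore compare genes within a genotype rather than the amount that survived. A difference in percent between genotypes cannot be told apart from a difference in strain or in the mixture of reads. With 1 library per genotype no test was possible, and intervals below cover counting error only. The wild-type strain also differed, PGL-1::RFP in the untreated and N2 in the oxidized library.

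In oxidized libraries the genotypes differed more than in untreated ones. The members' sum was 2.88 times higher in oxidized *eggd-1*, against 0.987 times for all genes tested and 1.50 times for CSR-1 targets below 100 RPM. Of the 129 members, 102 were higher in oxidized *eggd-1*, and for 71 the exact 95% interval of the ratio lay above 1, while for 8 it lay below 1. The 102 are 79.1% of the members, against 28.9% of all genes tested, many of which had few oxidized reads, and 48.0% of the CSR-1 targets below 100 RPM. With at least 10 oxidized reads in both libraries, 50.5% of 1739 other genes and 70.8% of 538 CSR-1 targets below 100 RPM were higher. Members had 9 to 272 reads in oxidized wild-type, against 2 to 921 in oxidized *eggd-1*.

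For members that rose, the direction in oxidized libraries was mostly the same, and for members that fell it was mixed. Of the 85 members called higher in untreated *eggd-1*, 77 had an oxidized ratio above 1, for 65 of them with an interval above 1. Of the 22 called lower, 9 had a ratio below 1, for 5 with an interval below 1, and 13 had a ratio above 1, for 4 with an interval above 1. The untreated and the oxidized comparisons share no library. Over the 129 members the untreated log2 fold change and the oxidized log2 ratio had a Pearson's r of 0.82 and a Spearman's coefficient of 0.71, a description across genes, which are not independent; over 1739 genes that are no members and had at least 10 oxidized reads in both libraries the values were 0.80 and 0.71. The slope of the oxidized on the untreated change was 1.36. All 17 members that rose at least 2-fold were also higher in oxidized *eggd-1*, by a median of 10.1 times.

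**Figure D4:**
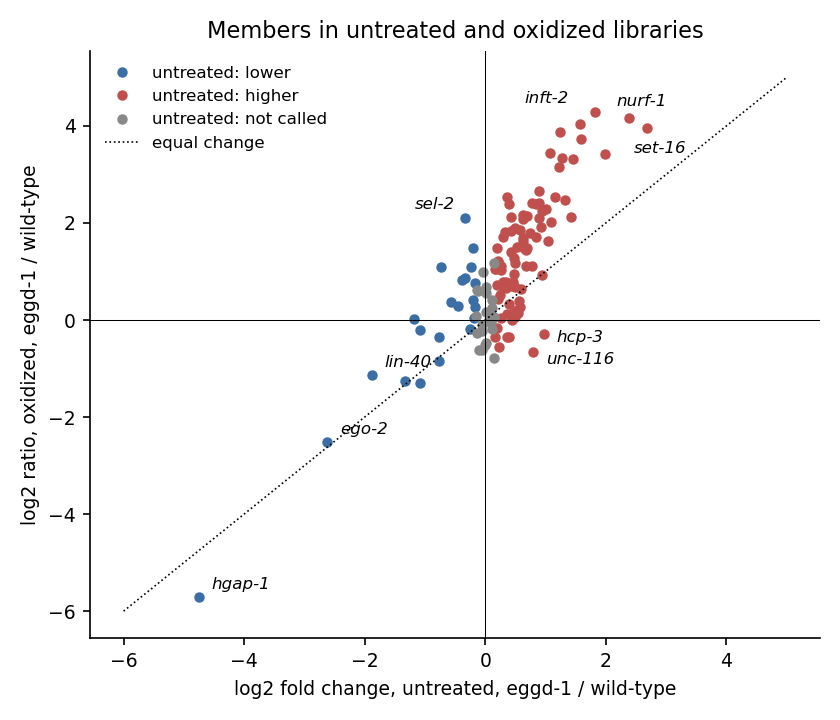
Log2 ratio of *eggd-1* to wild-type in the oxidized libraries (1 per genotype) against the log2 fold change in the untreated libraries for the 129 members, coloured by call in the untreated libraries. The dotted line marks equal change. Members that rose lie mostly above the line, *inft-2*, *nurf-1* and *set-16* at the top, while *hcp-3* and *unc-116* lie below 0 on the oxidized axis.

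At the genes that rose most, the gain was larger after oxidation. *inft-2* had 2.18 RPM in oxidized wild-type, against 42.7 RPM in oxidized *eggd-1*, a ratio of 19.6 (59 and 830 reads), compared with a ratio of 3.54 in untreated libraries. *nurf-1* had 1.62 and 28.9 RPM (17.8 times, 13.1 to 24.8) and *set-16* 2.91 and 45.2 RPM (15.5 times, 12.3 to 19.8). For *cls-2* the ratio was 4.72 (4.12 to 5.42) and for *snrp-200* 8.90 (7.41 to 10.9), and the 95% intervals of all 5 genes lie above their untreated ratios. *hgap-1* had 146 reads in oxidized wild-type and 2 in oxidized *eggd-1*, 0.0191 times (0.00229 to 0.0702), and *ego-2* 0.174 times (0.0897 to 0.311).

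Expressed as a percent of the untreated RPM, the level after oxidation was higher in *eggd-1* than in wild-type for the strongest risers, and also for members with small decreases. In wild-type, the median was 1.07% for the 17 members that rose at least 2-fold, 1.38% for the 22 not called and 1.15% for the 7 that fell at least 2-fold. In *eggd-1* the corresponding medians were 3.11%, 1.38% and 1.07%. All 17 of the first group had a higher percent in *eggd-1* than in wild-type, against 10 of the 22 not called and 5 of the 7 that fell at least 2-fold. Over all members it was 96 of 129. Among CSR-1 targets below 100 RPM with at least 10 oxidized reads in both libraries it was 370 of 538. The 15 members that fell by less than 2-fold went from a median of 0.728% to 1.34%, and 14 of them were higher in *eggd-1*. With a threshold of 1.5-fold, the 40 members that rose had medians of 1.10% in wild-type, against 2.81% in *eggd-1*. Members that rose by less than 2-fold lay between, at 1.14% and 1.57%.

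For scale, the same percent was computed over all genes with at least 10 RPM in each genotype. WAGO-1 targets outside the CSR-1 class had a median of 2.97% in wild-type, against 3.63% in *eggd-1* (635 genes), and MUT-16 targets 2.45% and 2.88% (1307 genes). CSR-1 targets had 0.877% and 1.20% (2956 genes). The whole WAGO-1 class had 1.37% and 2.08% (1018 genes), HRDE-1 targets 2.00% and 2.27% (795 genes) and PRG-1 targets 1.53% and 2.01% (903 genes). The median of 3.11% of the strongest risers in *eggd-1* lay between those of the MUT-16 targets and of the WAGO-1 targets outside the CSR-1 class, and above the other classes given here. CSR-1 targets of 10 to 100 RPM that rose at least 2-fold had medians of 0.908% and 2.57% (56 genes), against 0.906% and 1.09% for those not called (1053 genes).

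**Figure D5:**
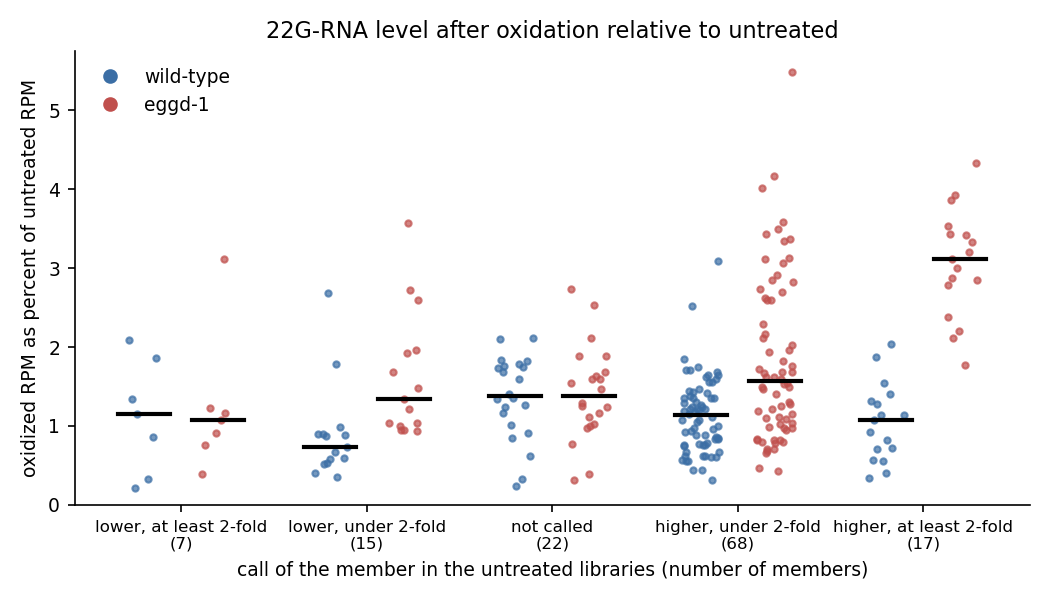
Oxidized RPM as a percent of the mean untreated RPM of the same genotype, one point per member, in wild-type (blue) and *eggd-1* (red), by call in the untreated libraries. Bars are medians. In members that rose at least 2-fold the median is 1.07% in wild-type, against 3.11% in *eggd-1*, while it is 1.38% in both genotypes for members not called.

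Not every riser followed this. Of the 68 members that rose by less than 2-fold, 50 had a higher percent in *eggd-1* than in wild-type. The oxidized ratio is another measure. Of the members called higher in untreated *eggd-1*, 8 had an oxidized ratio below 1, none with an interval below 1. These were *klp-15*, *rga-3*, *scc-1*, *hcp-3*, *cit-1.2*, *pid-2*, *let-502* and *unc-116*, 5 of which belong to the spindle, kinetochore and cortex group. *hcp-3* had an oxidized ratio of 0.820 (0.477 to 1.33) and *unc-116* of 0.636 (0.329 to 1.24). Both intervals lie below their untreated ratios. *rsd-2* had the highest oxidized percent of all members, 3.09% in wild-type against 5.49% in *eggd-1*, and E01G4.5 the lowest in wild-type, 0.211%.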

How the data were processed

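Small RNA libraries, 2 untreated per genotype and 1 oxidized per genotype, were grouped by their labels. The authors trimmed reads with TrimGalore, removed structural RNAs, aligned the rest without mismatches to WS279 with Bowtie and counted 22G-RNAs antisense to exons, dividing each read by its genome locations and overlapping features. The deposited values are these expected counts, of which 59 members had whole numbers (tolerance 0.001) in all untreated libraries, and the same values in RPM, scaled by the authors to genome-mapped reads. Coordinates and exon lengths are from Ensembl release 115 of WBcel235. Rounded counts of all 22G-RNA genes were tested with edgeR 4.0.16 (quasi-likelihood, R 4.3.3), with genome-mapped reads as library size, a minimum count of 10 and Benjamini-Hochberg adjustment over all genes. Each SE was derived from that test, as the absolute log2 fold change divided by the square root of the F statistic. It is approximate for large changes. On simulated 3-fold changes, 190 of 199 changed genes and 19 unchanged ones were called. The simulation changed few genes, and by more than most members changed. It therefore does not measure how well smaller changes are called, or calls where most genes change. Oxidized libraries entered no test, and their exact intervals (scipy 1.17.1, Python 3.11.15) are at 95%. The members and lists were chosen with earlier results of these data known. Genes named by rule were the 10 highest, the 8 largest changes in each direction, 3 on each side of the cutoff, up to 4 per list, and extremes of density, oxidized percent, 26G-RNAs and replicate spread. Role groups and other named genes were chosen after their values were seen. Alternatives were TMM, miRNA or 22G-RNA library sizes, DESeq2 1.42.0, a replicate block, other filters, cutoffs and memberships, and leaving out each library. Left out after seeing the data were the ERGO-1 class and members that overlap other genes.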

Additional observations from a re-analysis of the deposited data

Results flagged for a closer look

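For 5 members the genotypes did not overlap in the untreated libraries, and the oxidized ratio went the other way with an interval that did not include 1. Lack of overlap alone was common with 2 libraries per genotype: 92 members lay higher and 28 lower in *eggd-1* without overlap. The share of such genes among all genes tested is not given here, so the 5 are not shown to be unusual. Without regard to the interval, 8 of the members called higher and 13 of those called lower had an oxidized ratio in the other direction. In the untreated libraries both *eggd-1* values of *ppw-2*, *eel-1*, F55F10.1 and *sel-2* lay below both wild-type values, while the oxidized *eggd-1* library was higher than oxidized wild-type, by 2.13, 2.13, 2.79 and 4.32 times. Their exact intervals of counting error were 1.39 to 3.29, 1.34 to 3.44, 1.55 to 4.92 and 2.06 to 9.88. Y53F4B.9 went the other way, with 176 and 168 RPM in untreated wild-type, 190 and 189 RPM in untreated *eggd-1*, and an oxidized ratio of 0.583 (0.395 to 0.847). Its untreated change was not called. The oxidized reads behind these ratios numbered between 10 (*sel-2*, wild-type) and 98 (Y53F4B.9, wild-type). With 1 oxidized library per genotype the difference between treatments was not tested.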

How the results depend on the processing

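The count of members that rose (85) and fell (22) stayed within 1.5 times under TMM scaling, miRNA or 22G-RNA reads as library size and other filters, except that DESeq2 called 13 lower. The replicate block gave 85 higher and 23 lower; with 2 pairs, whose deviations correlated at 0.06 over genes, the numbers were not taken to pair the samples, and the block changed the call of none of the 57 named members. Leaving out each library gave 74 to 85 higher, 17 to 21 lower, medians of 0.31 to 0.38 and ratios of sums of 1.39 to 1.43. The median of 0.36 was 0.50 with TMM, 0.27 with miRNA, 0.42 with 22G-RNA scaling and 0.53 with DESeq2, and the ratio of sums was 1.33 with miRNA and 1.47 with 22G-RNA scaling. By membership, the *eggd-1* mean gave 169 higher, 8 lower, a median of 0.58 and a ratio of 1.69, and the mean of all 4 libraries 14 lower, 0.48 and 1.62. Choice by the *eggd-1* mean favours genes that are higher in *eggd-1*, so its values are no check on the direction. With the mean of all 4 libraries, the genes that are no members are higher in *eggd-1* by the choice itself. A cutoff of 50 RPM gave 248 higher and 141 lower of 548, 0.10 and 1.27, and 200 RPM gave 20 higher and 6 lower of 28, 0.27 and 1.36. With fold thresholds of 1.5, 2 and 4, 40, 17 and 2 were higher and 10, 7 and 2 lower. Of 627 values of named members under 11 alternatives, 571 kept direction and side of the threshold, 33 lost and 11 gained the call, and 12 changed sign: F09G2.2 (-0.03) and ZK402.5 (-0.06) with miRNA scaling, ZK402.5 without *eggd-1* replicate 1 (leaving out each library gave -0.05 to 0.09), *mel-28* (0.05), *npp-10* (0.00), *trr-1* (0.01) and *vps-15* (0.03) with TMM, and *ddx-15* (0.01), *mel-28* (0.08), *npp-10* (0.03), *trr-1* (0.04) and *vps-15* (0.06) with DESeq2. Calls of *ddx-15*, *egg-6*, *maph-1.3*, *nrde-2*, *rsd-2*, *simr-1*, *tebp-2*, F55F10.1 and T07A9.14, with log2 changes of at most 0.27 in size, were lost without at least 1 library, and that of *maph-1.2* was gained without wild-type replicate 1.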
